A study of Danio rerio with 32 samples.

Results

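The comparison of perfluorononanoic acid (PFNA) with its solvent in light-dark eyes rests on 8 RNA sequencing libraries of zebrafish eyes, 4 with PFNA and 4 with DMSO, out of 32 libraries in the series. The embryos were wild type, the agent was PFNA at 12.5 µM in 0.1% DMSO or 0.1% DMSO alone, and exposure ran from 0.75 to 120 hours post fertilization (hpf), when eyes were dissected. These 8 libraries came from embryos raised with 14 h of light and 10 h of dark a day (LD). The design text of the series gives another compound, PFHxS, at the same dose, while the title, the treatment protocol and every sample label give PFNA, which is followed here. The sources used here give neither the number of embryos or clutches behind a library nor the hour of the day at dissection, so p-values measure the spread between these libraries. Genes entered the comparison when they reached 1 FPKM (fragments scaled to gene length and to a divisor per library) in at least 4 of the 8 libraries, a rule that kept 16627 of the 32520 genes in the table.

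PFNA is a long-chain perfluoroalkyl acid, a class of surfactant known to bind fatty acid carriers and to activate lipid-sensing nuclear receptors in rodents. The zebrafish eye at this age holds a working retina of cones, rods, interneurons, ganglion cells and Müller glia, a pigment epithelium, a lens, and a ring of dividing progenitors at the retinal margin. Its cells run their own circadian clocks, which light sets directly by inducing repressor genes such as per2 and cry1a. Injured fish retina is known to switch on AP-1, C/EBP and Stat3 factors in Müller glia and immune cells.

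Coordinates below are those of the deposited table, for which no genome build is stated in the sources used here. The 25 eye-defining markers, of which 24 passed the filter, summed to 16454 to 21227 FPKM in the DMSO libraries and 11390.0 to 14971 FPKM in the PFNA libraries. No other tissue was set beside these sums, so they do not check the tissue label. These sums, most of them opsin and transducin transcripts, did not overlap between the groups. Fragments recovered from the FPKM values came to 10940402 to 15724003 per DMSO library and 9643359 to 13723116 per PFNA library (two-sided exact permutation test p = 0.600). Mitochondrially encoded transcripts took 5.73 ± 0.343% of fragments with DMSO and 5.35 ± 0.527% with PFNA (SD, n = 4; exact permutation p = 0.314, where the smallest that 4 against 4 allows is 0.0286). The first principal component of the 8 libraries held 36.7% of the variance and separated all PFNA from all DMSO libraries, and the second, with 15.13%, set PFNA replicates 3 and 4 at opposite ends.

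PFNA changed many eye genes, most of them modestly and more of them upward. With limma on log2(FPKM + 1), 3199 of 16627 genes passed at an adjusted p under 0.05, which is 19.2% of those tested, 1995 of them higher with PFNA (12%) and 1204 lower (7.24%). Of these, 437 differed over 2-fold in FPKM + 1, 359 higher (2.16%) and 78 lower (0.469%). A gene below 1 FPKM with DMSO could rise past this cut but not fall past it, so this split was partly set by the scale. The values of the groups did not overlap for 4051 genes, 24.4% of those tested. With median-ratio scaling the split was 1784 higher and 1378 lower, and with quantile normalization 1663 higher and 1580 lower. With all 16 eye libraries setting the spread 2019 genes passed. All changes below are differences of group means in log2(FPKM + 1), PFNA minus DMSO, with their standard errors, and adjusted p-values are from limma over all genes tested. A value in parentheses after a gene is its change. The gene lists below were written with earlier results of these data known. A share of called members above that of all genes can thus be partly built in, and no set test was made. On this scale the change of a gene near 1 FPKM is smaller than the ratio of its FPKM.

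**Figure D1:**
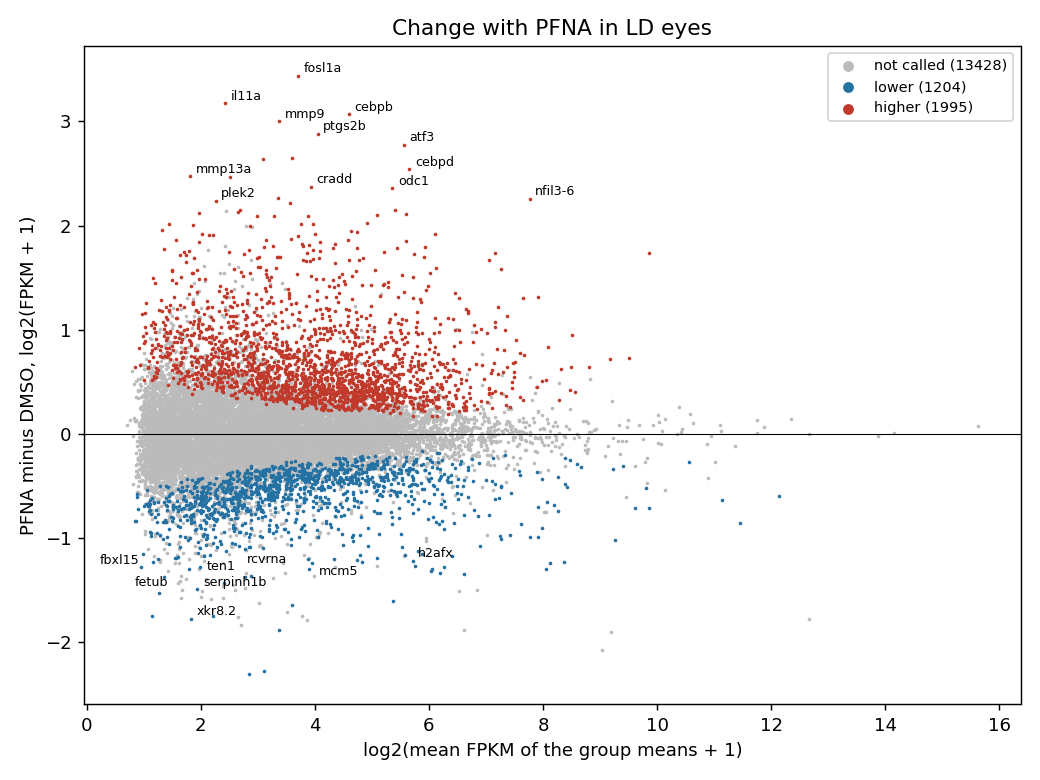
Change with PFNA in LD eyes, as the difference in log2(FPKM + 1), against the log2 of the mean FPKM of the groups plus 1, for the 16627 genes tested. Red points are the 1995 genes called higher and blue points the 1204 called lower with PFNA at an adjusted p under 0.05, and labels mark the 12 largest named rises and 8 of the largest named falls.

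Several of the largest rises belonged to stress and inflammation genes that were low in control eyes, where the scale leaves little room to fall. The AP-1 gene fosl1a (ENSDARG00000015355, chromosome 14, bases 30739476 to 30747686), a Fos-family partner of Jun factors, measured 0.737, 0.700, 1.21 and 2.07 FPKM with DMSO and 34.2, 17.7, 16.5 and 23.0 FPKM with PFNA. Every PFNA library lay far above every DMSO library, a change of 3.44 ± 0.26 (adjusted p = 8.45e-05). The gene il11a (chromosome 16, bases 12611362 to 12617155), which encodes a cytokine ligand of the gp130 receptor, had no fragment in any DMSO library and 16.1, 5.90, 6.56 and 6.42 FPKM with PFNA. Its mean with PFNA was at least 23.4-fold higher than the 0.374 FPKM that 3 fragments per DMSO library would give. The matrix metalloproteinase genes mmp9 (from 1.2 to 17.5 FPKM, a change of 3 ± 0.34) and mmp13a (from 0.0232 to 5 FPKM, 2.47 ± 0.27) were also among the 12 largest rises. They degrade collagen and other matrix proteins. A gene below 1 FPKM in every DMSO library could pass the filter only through the PFNA libraries. For such genes, among them il11a and mmp13a, a rise without overlap was fixed by the filter. Genes of this kind were also counted in the list shares below.

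The AP-1 family and related bZIP factors rose almost as a block. Of 14 members tested, 13 rose and none fell, against the 12% of all genes that rose, with a median change of 1.29 where the median of all genes tested was 0.0098. The stress factor atf3 went from 11.3 ± 3.24 FPKM with DMSO to 81.2 ± 11.5 FPKM with PFNA (SD, n = 4; change 2.78 ± 0.20, adjusted p = 6.37e-05). The abundant members jund (1.03 ± 0.10) and fosl2 (0.85 ± 0.091) and the small Maf gene mafk (1.23 ± 0.14) rose by less. The other list of immediate early genes, those of neuronal activity and growth factor signalling, had 19 of 29 members higher and 1 lower. They included the activity factor egr3 (from 0.741 to 4.66 FPKM, 1.69 ± 0.18), the growth factor gene hbegfa (1.67 ± 0.22), which is known to drive Müller glia into division after injury in zebrafish, and the stress gene gadd45ba (1.47 ± 0.18).

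Transcripts of gp130 cytokine signalling, of Stat factors and of feedback inhibitors rose at several levels. Among ligands, receptors and Jak kinases 5 of 11 tested members rose (45.5%, beside 12% of all genes) and none fell. Beside il11a these were the shared receptor gene il6st, from 10.1 ± 0.632 FPKM with DMSO to 23.0 ± 3.22 FPKM with PFNA (SD, n = 4; change 1.11 ± 0.10), the receptor genes lifra (0.49 ± 0.091; adjusted p = 0.0566 with all 16 eye libraries setting the spread) and lifrb (1.01 ± 0.22), and the kinase gene jak1 (0.57 ± 0.17), whose call was lost without any 1 of 7 libraries. Among Stat factors, feedback inhibitors and targets 10 of 15 rose (66.7%) and none fell, with a median of 1.38. The transcription factor gene stat3 measured 10.1, 11.8, 11.2 and 8.84 FPKM with DMSO and 37.4, 29.2, 30.2 and 32.2 FPKM with PFNA, with no overlap and a change of 1.54 ± 0.11 (adjusted p = 6.37e-05). The feedback inhibitor genes socs3b (1.49 ± 0.12), cish (1.75 ± 0.17), cishb (1.86 ± 0.14) and socs2 (1.67 ± 0.12, from 62.2 to 201 FPKM) of the same list rose by similar amounts.

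Inflammation factors and effectors rose in 24 of 33 cases (72.7%, beside 12% of all genes) with none falling. The C/EBP factor genes, which turn on acute phase genes, led: cebpb measured 2.86, 4.46, 5.37 and 4.12 FPKM with DMSO and 53.6, 39.1, 37.6 and 39.3 FPKM with PFNA, and cebpd went from 13.9 ± 1.62 FPKM with DMSO to 85.0 ± 4.73 FPKM with PFNA (SD, n = 4; change 2.54 ± 0.086, adjusted p = 2.38e-06). The prostaglandin synthase gene ptgs2b measured 2.41, 2.52, 3.15 and 3.81 FPKM with DMSO and 34.4, 25, 27.4 and 26.1 FPKM with PFNA, a change of 2.88 ± 0.14 (adjusted p = 1.6e-05), and in each of these genes the groups stayed apart. The NF-kB feedback gene tnfaip3 (1.13 ± 0.087) and the cytokine gene il1b (from 0.567 to 4.37 FPKM, 1.76 ± 0.17) rose as well. None of 9 tested macrophage and microglia markers passed. The macrophage gene mpeg1.2 changed by 0.85 ± 0.34 (adjusted p = 0.115), its relative mpeg1.1, with means of 0.00824 FPKM with DMSO and 0.0518 FPKM with PFNA, was below the filter, and all 27 listed markers summed to 24.3 to 42.2 FPKM with DMSO and 41.4 to 60 FPKM with PFNA. Of 4 tested neutrophil markers il1b itself and srgn (0.58 ± 0.17) rose, the call of srgn being lost without any 1 of 7 libraries, and all 11 listed markers summed to 4.67 to 15.4 FPKM with DMSO and 8.86 to 16.3 FPKM with PFNA. The part of these cells in the inflammation genes was not tested, and in whole eyes more cells of a type and more RNA per cell cannot be told apart.

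Circadian clock genes rose on both the repressor and the activator side. Of 23 tested period, cryptochrome, Nr1d, Nfil3 and other repressor genes 18 rose (78.3%, beside 12% of all genes) and none fell. Their median change was 0.68. The light-responsive period gene per2 measured 48.6, 62.3, 76.1 and 74.9 FPKM with DMSO and 195, 235, 196 and 251 FPKM with PFNA. All PFNA values exceeded all DMSO values, a change of 1.74 ± 0.15 (adjusted p = 0.000132). The cryptochrome genes cry1b (1.79 ± 0.090) and cry3b (1.5 ± 0.080), which encode repressors of the Clock-Bmal activator, rose, and per1b went from 76.6 ± 21.6 FPKM with DMSO to 148 ± 21.7 FPKM with PFNA (SD, n = 4; change 0.98 ± 0.20, adjusted p = 0.00825). The bZIP repressor gene nfil3-6 (chromosome 3, bases 14099693 to 14103551) had the largest clock-related rise, from 75.9 ± 18.8 FPKM with DMSO to 358 ± 25.4 FPKM with PFNA (SD, n = 4; change 2.26 ± 0.16, adjusted p = 6.69e-05).

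Of 15 activators and PAR bZIP outputs 10 rose (66.7%, beside 12% of all genes). The 1 that fell (6.67%, beside 7.24%) was the retinoid-related receptor gene rorb. The receptor gene rorcb measured 28.4, 27.2, 24.9 and 30.4 FPKM with DMSO and 104, 114, 106 and 106 FPKM with PFNA, a change of 1.92 ± 0.072 (adjusted p = 2.38e-06). Its groups did not overlap. The core activators changed by less: arntl1a, which encodes Bmal1, rose by 0.56 ± 0.084, and clocka went from 18.8 ± 0.239 FPKM with DMSO to 25.1 ± 1.76 FPKM with PFNA (SD, n = 4; change 0.40 ± 0.070, adjusted p = 0.0047). The PAR bZIP genes hlfa (0.64 ± 0.076, from 279.7 to 436 FPKM), tefa (0.74 ± 0.12) and dbpa (0.45 ± 0.077) rose too. With all 16 eye libraries setting the spread, clocka (adjusted p = 0.103) and dbpa (adjusted p = 0.0983) did not pass. Genes that light induces in fish cells overlap with the clock list. Of 19 light-induced and DNA repair genes 11 rose (57.9%, beside 12% of all genes) and 2 fell (10.5%, beside 7.24%). The photolyase-family gene cry-dash measured 10.8, 9.66, 10.7 and 8.77 FPKM with DMSO and 34.3, 40.9, 43.9 and 45.9 FPKM with PFNA (1.94 ± 0.11, adjusted p = 1.86e-05), and the nucleotide excision repair gene xpc went from 3.88 to 9.16 FPKM (1.06 ± 0.12). The 2 repair genes that fell were parp1 and apex1, named here after their values were seen.

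**Figure D2:**
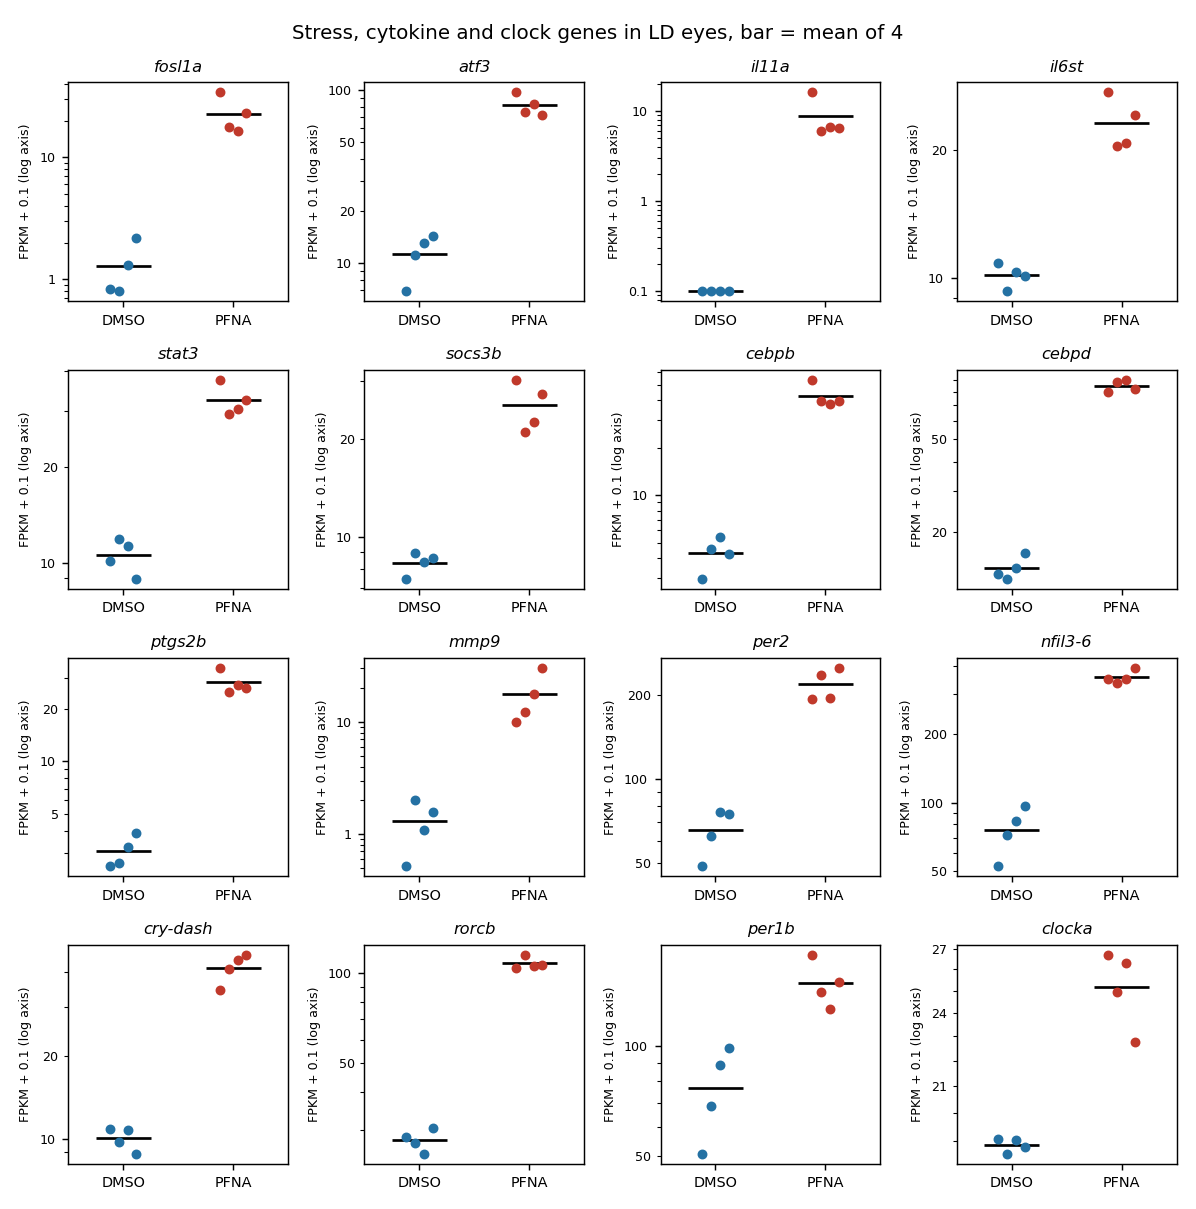
FPKM of 10 stress and cytokine genes and 6 clock and light-induced genes in each of the 8 LD eye libraries, as FPKM + 0.1 on a log axis, with 1 point per library and a bar at the group mean. In each panel the PFNA points lie above the DMSO points, by the most for fosl1a and il11a and by the least for clocka.

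Genes of the response to DNA damage and of cell cycle arrest rose in 15 of 31 cases (48.4%, beside 12% of all genes) with none falling. The pro-apoptotic gene bbc3 measured 3.08, 3.87, 3.64 and 4.85 FPKM with DMSO and 18.3, 11.7, 9.27 and 16.9 FPKM with PFNA (1.6 ± 0.21, adjusted p = 0.00117), the cell cycle inhibitor cdkn1a went from 9.36 to 14.3 FPKM (0.56 ± 0.13, adjusted p = 0.0175), and the stress-sensing sestrins sesn2 (1.70 ± 0.14, from 2.81 to 11.4 FPKM) and sesn1 (1.1 ± 0.10) rose. In the caspase and Bcl2 families 10 of 22 rose and 1 fell, and they belonged to opposing sides: the survival gene mcl1b (1.1 ± 0.059) and bcl2a (0.44 ± 0.058), and the death-promoting genes apaf1 (1.11 ± 0.10), bada (0.69 ± 0.071) and casp9 (0.86 ± 0.12).

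Genes of the integrated stress response, which slows translation and raises amino acid supply through Atf4, rose in 17 of 33 cases with none falling. That was 51.5%, beside 12% of all genes. The largest change of the list, 1.70, was that of sesn2, which was thus counted here and among the DNA damage genes. Other members of the list include the kinase-like gene trib3 (1.2 ± 0.10, from 13.3 to 31.6 FPKM), the phosphatase subunit gene ppp1r15a (1.14 ± 0.15) and the amino acid transporter gene slc3a2b, which went from 93.5 ± 3.44 FPKM with DMSO to 192 ± 10.6 FPKM with PFNA (SD, n = 4; change 1.03 ± 0.061, adjusted p = 3.05e-05). The factor genes ddit3 (0.50 ± 0.12, adjusted p = 0.0189) and atf4a (0.12 ± 0.089, adjusted p = 0.382) gave 1 call, that of ddit3, which was lost without DMSO replicate 3 or PFNA replicate 2 (adjusted p = 0.0505 to 0.0508). The list of endoplasmic reticulum chaperones and unfolded protein response genes stayed near the background. Of 30 tested members 3 rose (10%, beside 12% of all genes) and 2 fell (6.67%, beside 7.24%). The rises were herpud1 (0.75 ± 0.13), edem1 and xbp1, and the main chaperone gene hspa5 changed by 0.16 ± 0.12 (adjusted p = 0.376).

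Heat shock genes went both ways, 6 higher (18.8%, beside 12% of all genes) and 7 lower (21.9%, beside 7.24%) of 32. The co-chaperone gene bag3 rose from 2.93 to 12.3 FPKM (1.79 ± 0.17), whereas the cytosolic chaperone gene hsp90aa1.2 fell by 0.65 ± 0.070, and hsp70l changed by -0.16 ± 0.37 (adjusted p = 0.803). The strongest fall among them was in serpinh1b (chromosome 15, bases 29382454 to 29388012), the collagen chaperone of the endoplasmic reticulum, which measured 5.44, 5.20, 3.89 and 4.17 FPKM with DMSO and 1.01, 1.01, 0.977 and 1.01 FPKM with PFNA (-1.50 ± 0.14, adjusted p = 0.000191). No library of one group reached the range of the other. Of 43 tested collagen genes, whose products it folds, 0 rose and 2 fell (col17a1a and col14a1b). Matrix and collagen processing genes split 4 higher (9.3%, beside 12% of all genes) and 6 lower (14%, beside 7.24%) of 43. These 6 include serpinh1b, which was thus counted in both lists. The collagen-processing genes pcolcea (1.15 ± 0.14) and loxl2a (1.09 ± 0.14) were among the rises.

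Sterol genes mostly rose. Of 40 tested genes of cholesterol synthesis, uptake and control 22 rose (55%, beside 12% of all genes) and 1, lbr, fell. Their median change was 0.49. The sterol oxidase gene msmo1, a late step of the synthesis, measured 3.48, 3.75, 3.58 and 4.54 FPKM with DMSO and 14.8, 14.1, 14.9 and 14.5 FPKM with PFNA (1.69 ± 0.10, adjusted p = 2.72e-05). The lipoprotein receptor gene ldlra measured 4.17, 4.1, 4.73 and 5.06 FPKM with DMSO and 21.7, 17.7, 23.5 and 28.3 FPKM with PFNA (2.09 ± 0.14, adjusted p = 5.05e-05). In both genes the PFNA libraries stood clear of the DMSO libraries. The controlling factor srebf2 went from 23.3 to 37.8 FPKM (0.67 ± 0.14, adjusted p = 0.00937; adjusted p = 0.259 with all 16 eye libraries setting the spread), while the rate-limiting reductase gene hmgcra changed by 0.20 ± 0.10 (adjusted p = 0.198). The list also holds the efflux transporter gene abca1a (1.11 ± 0.11, from 42.6 to 93.1 FPKM), which moves cholesterol out of cells and rose together with the uptake and synthesis genes.

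Of 29 tested fatty acid synthesis genes 11 rose (37.9%, beside 12% of all genes) and 2 fell (6.90%, near the 7.24% of all genes). The factor gene srebf1 (from 62.4 to 141 FPKM, 1.16 ± 0.093) and the synthase gene fasn (0.87 ± 0.069) were among the rises. The 2 falls were in the very-long-chain elongases elovl4a and elovl4b, named after their values were seen. Of 59 tested genes of fatty acid oxidation and PPAR signalling 18 rose (30.5%, beside 12% of all genes) and 4 fell (6.78%, beside 7.24%). The rises included the acyl-CoA synthetase gene acsl4a (1.57 ± 0.082, from 12.3 to 38.5 FPKM), the pyruvate dehydrogenase kinase gene pdk2b (1.86 ± 0.11, from 9.32 to 36.4 FPKM) and the uncoupling protein gene ucp2 (1.08 ± 0.12). The PPAR targets angptl4 (0.31 ± 0.17, adjusted p = 0.243) and cpt1ab (0.0046 ± 0.21, adjusted p = 0.991) did not pass, with 95% intervals of the change from -0.074 to 0.69 and from -0.46 to 0.47. Of 7 tested fatty acid binding protein genes 1 rose, fabp3 (0.34 ± 0.10), a call lost without any 1 of 7 libraries.

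Classical xenobiotic response lists held a small number of called genes. Of 32 tested Nrf2 and oxidative stress genes 6 rose, or 18.8% beside the 12% of all genes, and none fell. They included the autophagy receptor gene sqstm1 (1.37 ± 0.17) and the haem oxygenase gene hmox1a (from 0.455 to 2.04 FPKM, 1.07 ± 0.18), while the quinone reductase gene nqo1 changed by -0.15 ± 0.20 (adjusted p = 0.639). Of 8 tested aryl hydrocarbon receptor genes 2 rose (25%), tiparp (0.74 ± 0.12) and ahr1b (0.23 ± 0.062), the second a call lost without any 1 of 6 libraries. The pathway's marker cyp1a, with means of 0.676 FPKM with DMSO and 1.24 FPKM with PFNA, was below the filter. Of 52 tested genes of glycolysis and the hypoxia response 15 rose (28.8%) and 3 fell (5.77%, beside 7.24% of all genes). The rises included pfkfb3 (1.51 ± 0.12), slc16a3 (0.84 ± 0.091) and higd1a (1.43 ± 0.16).

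Many proliferation genes fell. Of 51 tested DNA replication genes 20 fell, against 7.24% of all genes, and 2 (e2f7 and cdt1) rose, with a median of -0.38. The replicative helicase subunit gene mcm5 measured 22.0, 18.2, 22.9 and 19.6 FPKM with DMSO and 7.90, 8.14, 8.15 and 8.39 FPKM with PFNA, with no overlap (-1.24 ± 0.088, adjusted p = 6.37e-05). The other helicase genes mcm2, mcm3 and mcm6 changed by -0.89 ± 0.10, -0.92 ± 0.13 and -0.86 ± 0.12, and the replication clamp gene pcna went from 83.1 ± 11.6 FPKM with DMSO to 56.7 ± 4.53 FPKM with PFNA (SD, n = 4; change -0.54 ± 0.11). Of 38 mitosis genes 25 fell and all 38 had a change below 0, with a median of -0.58. The proliferation marker mki67 measured 23.7, 19.5, 21.5 and 21.2 FPKM with DMSO and 12, 16.5, 12.5 and 12 FPKM with PFNA (-0.66 ± 0.11, adjusted p = 0.00367), and the spindle gene tpx2 (-1.01 ± 0.083) and the topoisomerase gene top2a (-0.73 ± 0.072) fell with it. In the whole eye, fewer dividing cells and less RNA per dividing cell cannot be told apart.

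Histone genes parted by type. Of 33 tested histone genes 20 fell (60.6%, beside 7.24% of all genes) and 2 rose (6.06%, beside 12%). The falls were mainly in hist1h2a, hist1h4 and related symbols, which name many near-identical copies whose reads the counting could split, for example hist1h4l, from 321 ± 12.5 FPKM with DMSO to 161 ± 15.6 FPKM with PFNA (SD, n = 4; change -0.99 ± 0.077). The damage-marking histone gene h2afx fell by 1.22 ± 0.13, from 72.6 to 30.7 FPKM. Both rises were in linker histones, h1f0 from 140.4 ± 37.1 FPKM with DMSO to 341 ± 6.17 FPKM with PFNA (SD, n = 4; change 1.31 ± 0.16) and h1fx (1.31 ± 0.27), the first of which is known to mark cells that have left the cell cycle. Among retinal progenitor, Notch and neurogenic genes 14 of 52 fell (26.9%, beside 7.24% of all genes). The 7 rises were 13.5%, near the 12% of all genes. The neurogenic gene hes6 (-0.91 ± 0.11) and the chromatin gene hmga1a (-0.48 ± 0.060, from 386 to 277 FPKM) fell, and the cyclin-dependent kinase inhibitor gene cdkn1cb (1.25 ± 0.15) and the Myc-family gene mych (0.96 ± 0.16) rose.

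**Figure D3:**
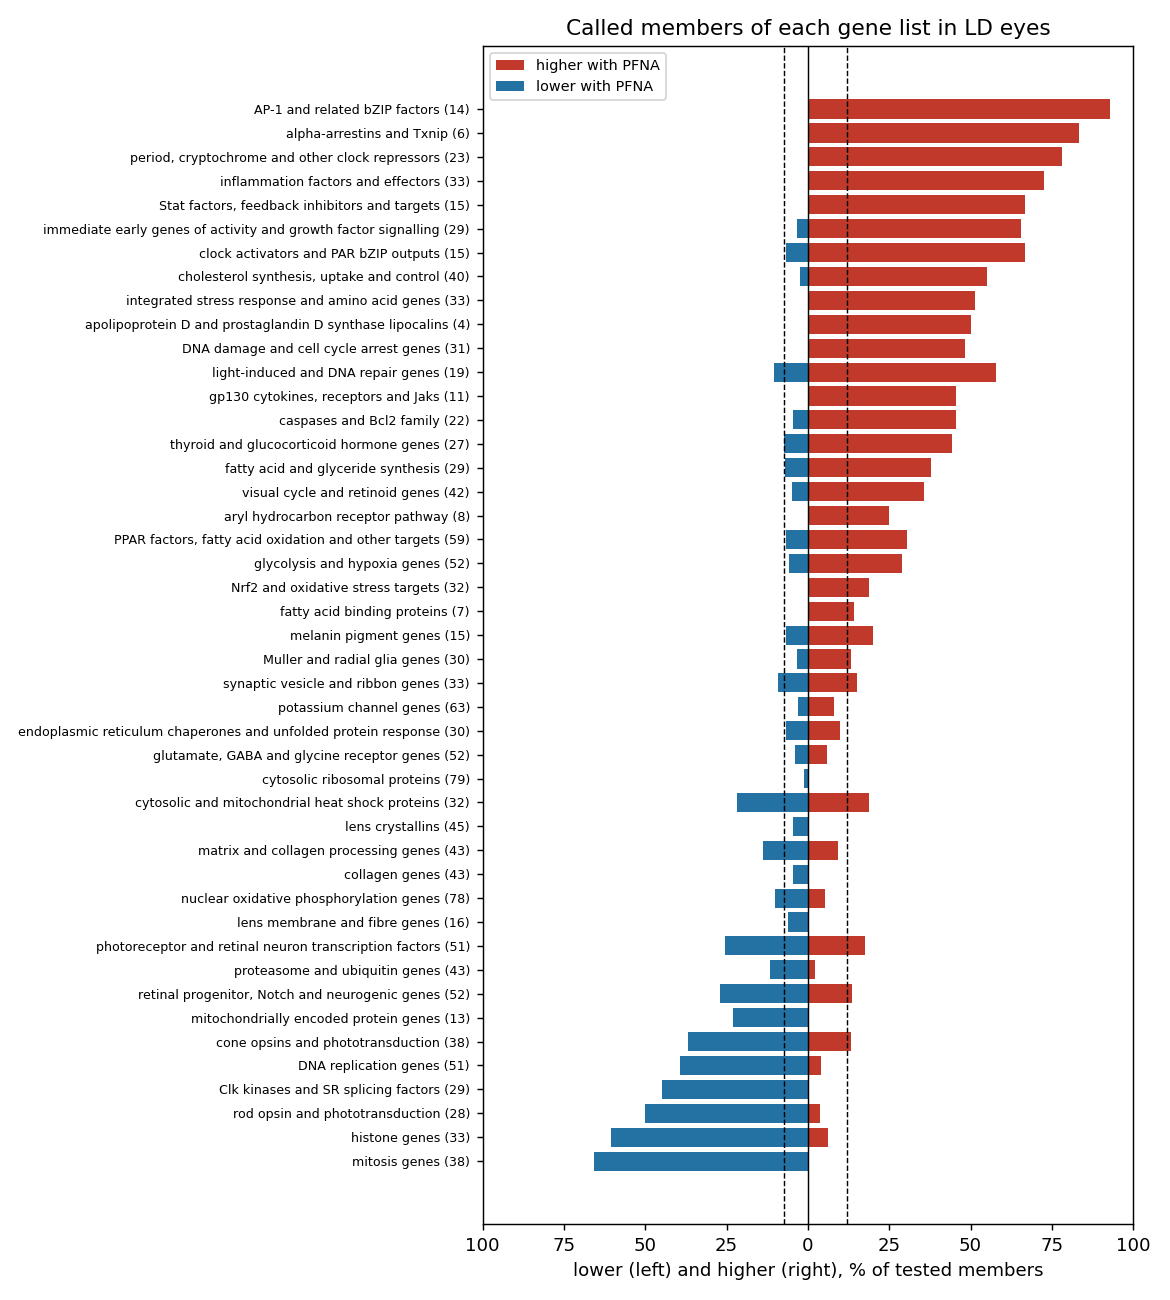
Share of tested members called higher (red, to the right) and called lower (blue, to the left) with PFNA in LD eyes for 45 gene lists, with the number tested after each name. Dashed lines mark the share over all genes tested, 12% higher and 7.24% lower, so that AP-1 stands at the rising end and mitosis and histone genes at the falling end. The lists were written with earlier results of these data known.

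Photoreceptor transcripts fell more often than they rose, in both cones and rods. Of 38 tested cone genes 14 fell (36.8%, beside 7.24% of all genes) and 5 rose (13.2%, near the 12% of all genes). The green cone opsin gene opn1mw1 measured 3289, 4448, 3301 and 3455 FPKM with DMSO and 1739.6, 1885, 2586 and 1800.3 FPKM with PFNA. The highest PFNA value was below the lowest DMSO value, a change of -0.86 ± 0.16 (adjusted p = 0.00581). The blue opsin gene opn1sw2 fell from 160.1 ± 19.8 FPKM with DMSO to 76.4 ± 18.7 FPKM with PFNA (SD, n = 4; change -1.08 ± 0.15, adjusted p = 0.00185), the ultraviolet opsin gene opn1sw1 from 5440.3 to 3597 FPKM (-0.60 ± 0.15, adjusted p = 0.0202), and the red opsin gene opn1lw2 changed by -0.48 ± 0.18 (adjusted p = 0.105). With quantile normalization the changes were -0.53 (adjusted p = 0.0577) for opn1mw1 and -0.57 (adjusted p = 0.0681) for opn1sw1, neither past the threshold. The gene opn1sw1 also missed it without DMSO replicate 2 or PFNA replicate 1 (adjusted p = 0.0569 to 0.057) and with no filter on level (adjusted p = 0.189). The cone transducin gene gnat2, which relays the opsin signal, fell from 1148 ± 69.4 FPKM with DMSO to 704 ± 84.7 FPKM with PFNA (SD, n = 4; change -0.71 ± 0.10, adjusted p = 0.00158).

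The cone channel subunit genes moved apart. The gene cngb3.2 measured 39.7, 39.5, 40.7 and 40.3 FPKM with DMSO and 24.7, 24.4, 24.2 and 20.9 FPKM with PFNA and fell (-0.75 ± 0.069, adjusted p = 0.000199), and cnga3b measured 35.0, 40.5, 37.0 and 42.7 FPKM with DMSO and 68.8, 79.8, 84.4 and 74.1 FPKM with PFNA and rose (0.97 ± 0.086, adjusted p = 0.000179). Neither pair of groups overlapped. The sodium-calcium exchanger gene slc24a2, which clears calcium from cones, rose by 0.80 ± 0.10. Of 28 tested rod genes 14 fell (50%, beside 7.24% of all genes) and 1 rose (3.57%, beside 12%). The rod opsin gene rho went from 2752 ± 617 FPKM with DMSO to 1749 ± 207 FPKM with PFNA (SD, n = 4; change -0.64 ± 0.16, adjusted p = 0.0263; with quantile normalization -0.41, adjusted p = 0.184), the rod transducin gene gnat1 from 253 ± 29.5 FPKM with DMSO to 138 ± 13.9 FPKM with PFNA (SD, n = 4; change -0.87 ± 0.10, adjusted p = 0.000616), and the phosphodiesterase gene pde6b changed by -0.54 ± 0.088. The call of rho was lost without DMSO replicate 2 or 3 or PFNA replicate 1 or 3 (adjusted p = 0.0523 to 0.0649) and with no filter on level (adjusted p = 0.0919).

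**Figure D4:**
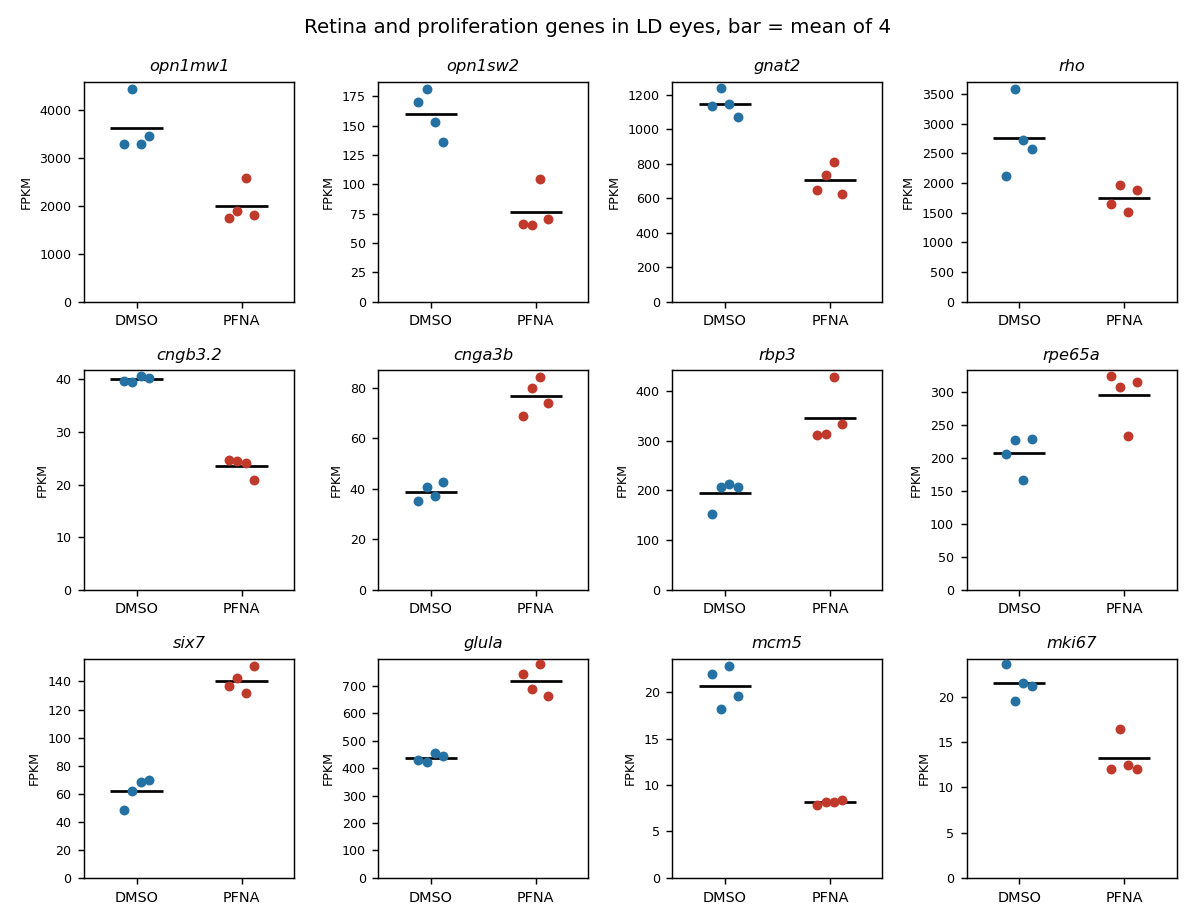
FPKM of 12 photoreceptor, pigment epithelium, glia and proliferation genes in each LD eye library, with 1 point per library, a bar at the group mean and linear axes that start at 0. The opsin, transducin and proliferation genes lie lower with PFNA, while cnga3b, rbp3, rpe65a, six7 and glula lie higher.

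Visual cycle genes rose more often than they fell. Of 42 tested visual cycle and retinoid genes 15 rose (35.7%, beside 12% of all genes) and 2 fell (4.76%, beside 7.24%). The interphotoreceptor retinoid carrier gene rbp3 went from 195 ± 28.9 FPKM with DMSO to 347 ± 55.0 FPKM with PFNA (SD, n = 4; change 0.83 ± 0.14, adjusted p = 0.00335), the retinol carrier gene rbp4l from 248 ± 11.1 FPKM with DMSO to 479.6 ± 36.1 FPKM with PFNA (SD, n = 4; change 0.94 ± 0.072, adjusted p = 8.69e-05), and the retinal G protein coupled receptor gene rgra (0.55 ± 0.083) and the dehydrogenase gene rdh8a (0.48 ± 0.073) rose too. The retinoid isomerase gene of the pigment epithelium, rpe65a, rose from 208 to 295 FPKM (0.51 ± 0.13). Its call was lost without DMSO replicate 1 or 3 or PFNA replicate 1, 2 or 4 (adjusted p = 0.0576 to 0.0683) and with no filter on level (adjusted p = 0.0515). Melanin genes gave 3 rises (slc24a5, pmelb and pmela; 20%, beside 12% of all genes) and 1 fall of 15. Among Müller and radial glia genes 4 of 30 rose and 1 fell, a share of rises near the background: the glutamine synthetase gene glula measured 428, 423, 456 and 444 FPKM with DMSO and 743, 691, 782 and 663 FPKM with PFNA (0.71 ± 0.073, adjusted p = 0.000353), the prostaglandin D synthase gene ptgdsb.1 rose by 1.67 ± 0.23, and the filament gene gfap changed by 0.20 ± 0.22 (adjusted p = 0.576).

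Transcription factors of retinal cell types split, 9 rising (17.6%, beside 12% of all genes) and 13 falling (25.5%, beside 7.24%) of 51. The photoreceptor factor six7, which is needed for green cone opsins in zebrafish, measured 48.2, 62.0, 68.4 and 69.8 FPKM with DMSO and 137, 142, 132 and 151 FPKM with PFNA (1.18 ± 0.11, adjusted p = 0.000245), the factor prdm1b rose by 0.90 ± 0.12, samd7 by 0.97 ± 0.13 and rx1 by 0.84 ± 0.14. The ganglion cell factor atoh7 (-0.85 ± 0.11) and the amacrine factor tfap2a (-0.45 ± 0.061, from 146 to 107 FPKM) fell. The rise of six7 was measured in the same libraries as the fall of opn1mw1.

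Splicing kinases and SR proteins fell in 13 of 29 cases (44.8%, beside 7.24% of all genes) with none rising. The falls were led by clk4a, from 145 ± 9.60 FPKM with DMSO to 83.7 ± 5.86 FPKM with PFNA (SD, n = 4; change -0.79 ± 0.072, adjusted p = 0.000188), and srsf1a (-0.56 ± 0.079). Alpha-arrestins, which guide receptors and transporters to degradation, rose in 5 of 6 cases (83.3%, beside 12% of all genes). They included arrdc3b from 20.2 to 74.6 FPKM (1.85 ± 0.17) and arrdc3a (1.46 ± 0.11). Among thyroid and glucocorticoid genes 12 of 27 rose (44.4%, beside 12% of all genes) and 2 fell (7.41%, near the 7.24% of all genes). The gene dio2, whose enzyme activates thyroid hormone, measured 3.61, 6.41, 5.72 and 6.92 FPKM with DMSO and 18.9, 15.5, 21.4 and 16.6 FPKM with PFNA (1.54 ± 0.18, adjusted p = 0.0006). The hormone-responsive genes klf9 (from 32.0 to 96.2 FPKM, 1.54 ± 0.21) and fkbp5 (from 48.7 to 125 FPKM, 1.36 ± 0.21) rose as well.

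Lens crystallin and ribosomal protein genes gave fewer calls than the 12% higher and 7.24% lower of all genes. Of 45 tested lens crystallins none rose and 2 fell, and of 79 ribosomal protein genes none rose and 1 (rpl36a) fell. Of 43 proteasome and ubiquitin genes 5 fell (11.6%) and 1 rose, the autophagy receptor gene sqstm1, which was also counted in the Nrf2 list. Nuclear oxidative phosphorylation genes gave 4 rises and 8 falls (10.3%) of 78, with the succinate dehydrogenase gene sdha (0.61 ± 0.091) among the rises. They summed to 3868 to 4337 FPKM with DMSO and 3422 to 3807 FPKM with PFNA. Of 13 mitochondrially encoded protein genes 3 (mt-nd4l, mt-nd5 and mt-nd6) fell, or 23.1%, and 12 had a change below 0. They summed to 15344 to 15989 FPKM with DMSO and 13580.5 to 14833 FPKM with PFNA. In both sets the summed levels were lower with PFNA, with no overlap. Glutamate, GABA and glycine receptor genes gave 3 rises and 2 falls of 52, potassium channels 5 and 2 of 63, and synaptic vesicle genes 5 and 3 of 33.

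Markers of other organs and cell types gave calls for some and none for others. None of 22 muscle, 7 pancreas and gut, 11 liver and 21 cartilage and bone markers tested passed. Muscle markers summed to 70 to 239.9 FPKM with DMSO and 117 to 210.1 FPKM with PFNA. Liver markers had a median change of -0.84 with no call. Red blood cell markers gave 1 fall of 10. Epidermis and epithelium markers gave 6 rises (22.2%, beside 12% of all genes) and 1 fall of 27. The largest rise was in the claudin gene cldnb, a tight junction component, which measured 12.8, 15.5, 14.9 and 15.4 FPKM with DMSO and 71.9, 63.4, 65.5 and 72.6 FPKM with PFNA (2.15 ± 0.081, adjusted p = 2.38e-06), while the summed epidermal markers ranged over 943 to 1471 FPKM with DMSO and 788 to 1464 FPKM with PFNA. Endothelial markers gave 4 rises (26.7%) and 2 falls (13.3%) of 15 and summed to 85.9 to 93.0 FPKM with DMSO and 95.4 to 103 FPKM with PFNA. Markers of brain outside the retina gave 3 rises (17.6%) and 1 fall of 17 and summed to 298 to 322 FPKM with DMSO and 338 to 365 FPKM with PFNA. Both of these sums were higher with PFNA, with no overlap, and their part in the other results was not tested.

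Most of the remaining large changes stood outside these groups. Among rises these were cradd, a death-domain adaptor gene (from 4.09 to 24.5 FPKM, 2.37 ± 0.19), odc1, which makes the polyamine putrescine (from 12.7 to 67.4 FPKM, 2.36 ± 0.17), and plek2 (2.24 ± 0.19). Among falls they were the scramblase-family gene xkr8.2, which measured 4.82, 5.39, 3.33 and 4.27 FPKM with DMSO and 0.796, 1.21, 0.487 and 0.0493 FPKM with PFNA (-1.77 ± 0.24, adjusted p = 0.0013), the fetuin gene fetub (-1.30 ± 0.34), the telomere gene ten1 (-1.28 ± 0.31), the F-box gene fbxl15 (-1.20 ± 0.27) and, already counted in the cone and rod lists, the photoreceptor calcium sensor gene rcvrna (-1.21 ± 0.32). The rule also picked the microRNA genes dre-mir-19b (-1.38 ± 0.39) and dre-mir-9-2 (-1.30 ± 0.25), which rest on 0 to 4 and 6 to 35 recovered fragments per library. The call of fetub was lost without DMSO replicate 2 or PFNA replicate 1 or 4 (adjusted p = 0.0506 to 0.0575). That of ten1 was lost without DMSO replicate 1 or PFNA replicate 2 (adjusted p = 0.0538 to 0.0562). That of rcvrna was lost without DMSO replicate 1 or 3 or PFNA replicate 1 (adjusted p = 0.0603 to 0.0788), and that of dre-mir-19b without any 1 of 7 libraries. With all 16 eye libraries setting the spread, fetub (adjusted p = 0.3445), ten1 (adjusted p = 0.0889) and dre-mir-19b (adjusted p = 0.174) did not pass. With no filter on level, fetub (adjusted p = 0.0555), rcvrna (adjusted p = 0.058) and dre-mir-19b (adjusted p = 0.0682) did not pass.

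The PFNA response of LD eyes was set beside that of eyes kept under 24 h of dark (DD), with the same dose, solvent and exposure and 4 libraries per group, none shared. The difference of the response itself passed for 23 of 16627 genes (0.138%), 8 with a more positive and 15 with a more negative change in DD. Of these 23, 14 were among the genes called in LD eyes, where 19.2% of all genes tested were called. The LD eye libraries entered both tests, so this overlap was partly built in. One of the DD libraries, eye DD PFNA replicate 4, had 10% mitochondrial fragments against at most 8.03% in the other 15 eye libraries, and without it 58 genes passed. The number fell to 5 without eye LD DMSO replicate 2, so the count changed with the libraries included.

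Clock-related genes were among the differences. The gene nfil3-6 rose by 2.26 ± 0.16 in LD eyes, whereas its change in DD eyes was -0.043, a difference of -2.30 ± 0.28 (adjusted p of the difference = 0.00286); its mean level in DD eyes was 171 ± 31.3 FPKM with DMSO and 168 ± 41.0 FPKM with PFNA. For rorcb the change was 1.92 ± 0.072 in LD and 0.69 in DD eyes (adjusted p of the difference = 0.0151), and for the sestrin gene sesn1 it was 1.1 ± 0.10 and -0.030 (adjusted p of the difference = 0.0454). The O-GlcNAc hydrolase gene oga changed by 0.91 ± 0.067 in LD and 0.14 in DD eyes (adjusted p of the difference = 0.021). These genes had the larger rise under light and dark cycles. Only nfil3-6, cish and esrrgb among the genes named here passed whichever of the 16 eye libraries was left out. The call of rorcb was lost without eye LD DMSO replicate 2 (-1.23, adjusted p = 0.0544). Those of sesn1, oga, cishb and cngb3.2 were lost without that library and also without others, for 13, 7, 7 and 4 of the 16 libraries in all. The call of sesn1 was also lost with a pseudocount of 0.1 FPKM (adjusted p = 0.0501), no filter on level (adjusted p = 0.0789) and median-ratio scaling (adjusted p = 0.0509). With voom on recovered fragments cishb did not pass (adjusted p = 0.0745).

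The opposite order held for the Stat feedback genes cish (1.75 ± 0.17 in LD, 3.26 in DD, adjusted p of the difference = 0.0124) and cishb (1.86 ± 0.14 in LD, 3.66 in DD, adjusted p of the difference = 0.0216). The orphan nuclear receptor gene esrrgb, which did not pass in LD eyes (0.21 ± 0.19, adjusted p = 0.493), changed by 2.63 in DD eyes (adjusted p of the difference = 0.00102). The cone channel gene cngb3.2 fell in LD eyes by 0.75 ± 0.069 and had a change of -1.55 in DD eyes (adjusted p of the difference = 0.0178). For other leading genes the test did not separate the photoperiods: the difference was 0.79 ± 0.34 for fosl1a (95% interval from 0.054 to 1.52), 0.13 ± 0.24 for cebpb (from -0.37 to 0.63), -0.77 ± 0.29 for per2 (from -1.39 to -0.16) and 0.13 ± 0.25 for opn1mw1 (from -0.41 to 0.67), none with an adjusted p under 0.05.

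**Figure D5:**
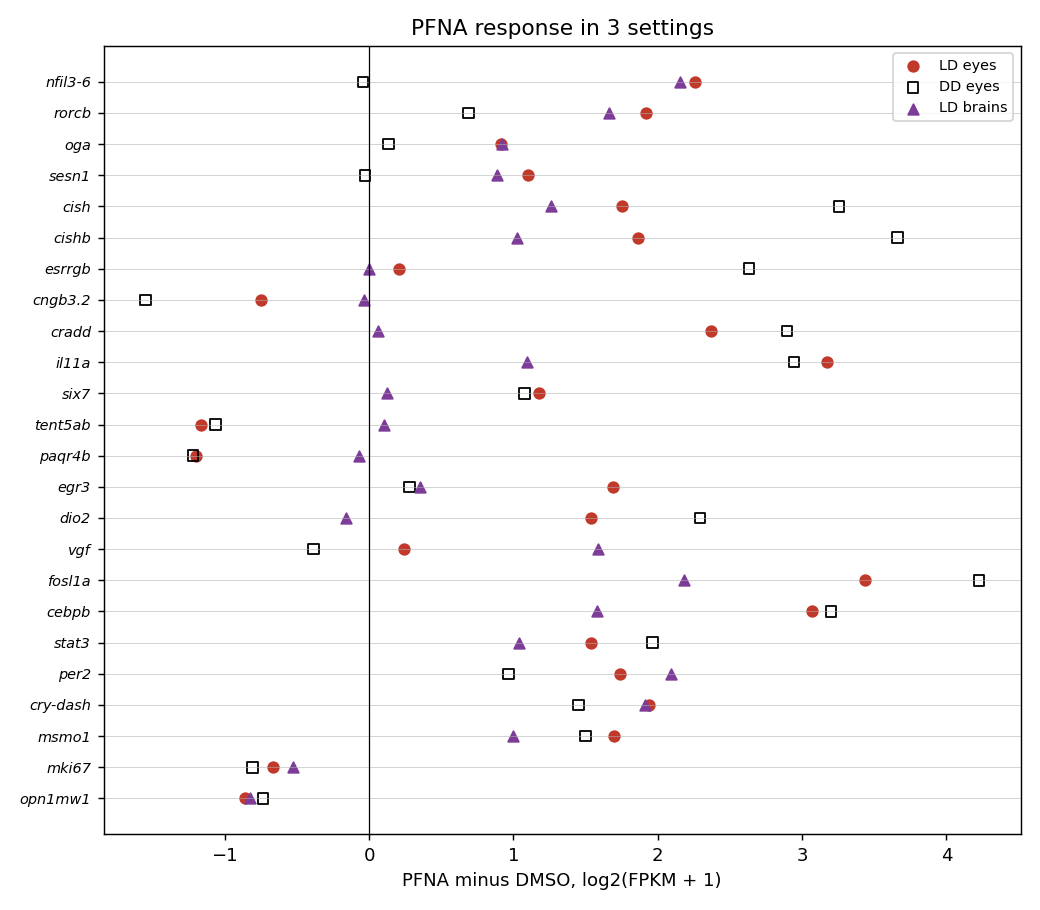
Change with PFNA, in log2(FPKM + 1), of 24 genes in LD eyes (filled circles), DD eyes (open squares) and LD brains (triangles), each the difference of means of 4 against 4 libraries. The points of nfil3-6 and sesn1 lie near 0 in DD eyes alone, and those of cradd, six7, tent5ab and paqr4b lie near 0 in LD brains alone.

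Brains of LD embryos, again 4 libraries with PFNA and 4 with DMSO, gave a further comparison. The response differed between brain and eye for 162 genes (0.974%), 75 more positive and 87 more negative in brain. Of the 162, 138 were called in LD eyes, where 19.2% of all genes tested were called. This test also used the LD eye libraries and only genes that passed the filter in LD eyes. The overlap was thus partly built in, and genes expressed in brain alone were not covered. This number was between 35 and 150 when any 1 of the 16 libraries was left out, lowest without brain LD PFNA replicate 1. Leaving out a library also leaves fewer replicates, and the part of each was not tested. With the replicate number as a block 51 genes passed. That block gives 1 shared term to all libraries of a number, whatever their treatment. Same-numbered eye and brain libraries of 1 treatment correlated at 0.0862 to 0.201, and a fit that pairs them within a treatment was not run. The adaptor gene cradd rose by 2.37 ± 0.19 in eyes and changed by 0.063 in brains (difference -2.31 ± 0.25, adjusted p of the difference = 0.00126), and il11a changed by 1.09 in brains (adjusted p of the difference = 0.0138). The retinal factor six7 (0.13 in brains, adjusted p of the difference = 0.00882), the nucleotidyltransferase gene tent5ab (fell by 1.16 ± 0.094 in eyes, 0.10 in brains, adjusted p of the difference = 0.00234) and the membrane receptor gene paqr4b (fell by 1.2 ± 0.12 in eyes, -0.070 in brains, adjusted p of the difference = 0.00882) differed too. Some of these genes were close to 0 in brain, with PFNA means there of 0.216 FPKM for six7 and 0.0169 FPKM for paqr4b. With a pseudocount of 0.1 FPKM the differences were -0.64 (adjusted p = 0.424) for six7, 0.73 (adjusted p = 0.412) for paqr4b, -1.90 (adjusted p = 0.126) for dio2 and -3.02 (adjusted p = 0.0506) for il11a, none past the threshold, and with voom on recovered fragments their adjusted p was 0.237 to 0.922. The immediate early gene egr3 changed by 0.36 in brains (adjusted p of the difference = 0.0158) and the deiodinase gene dio2 by -0.16 (adjusted p of the difference = 0.0218; adjusted p = 0.0543 without brain LD PFNA replicate 1).

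In the other direction, the neuropeptide precursor gene vgf did not pass in LD eyes (0.24 ± 0.088, adjusted p = 0.0918) and changed by 1.59 in LD brains, the smallest p of this comparison (adjusted p of the difference = 0.000175). The light and clock genes gave no called difference between the tissues for per2 (1.74 ± 0.15 in eyes, 2.09 in brains), cry-dash (1.94 ± 0.11, 1.91) and nfil3-6 (2.26 ± 0.16, 2.15), with 95% intervals of the difference from -0.074 to 0.78, from -0.34 to 0.28 and from -0.56 to 0.36.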

How the data were processed

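The 8 libraries are paired-end RNA sequencing of total RNA, and the 32 libraries of the series form 8 groups of 4. The authors deposited FPKM for 32520 genes, with position, length and type, and featureCounts 1.5.0-p3 and HISAT2 2.0.5 are listed in the submitters' processing notes with no role; the genome build is not given in the sources used here. Per the labels' protocols a library was directional or non-directional, without saying which, so values of overlapping, antisense and near-identical genes are uncertain. FPKM times gene length gave whole fragment counts within 0.05 in all libraries, and 2 columns of the authors' group values were not used. In LD eyes the divisor behind the FPKM was 0.983 to 1.021 of the recovered fragments with DMSO and 0.942 to 0.962 with PFNA. Relative to fragment totals, FPKM were thus set somewhat higher with PFNA, and the fit with voom used the same divisor. No pair of replicates agreed within sampling noise (chi-square per degree of freedom 9.68 to 22.6).

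Genes at 1 FPKM or more in at least 4 of the 8 libraries were tested on log2(FPKM + 1), a log2 scale computed from the deposited FPKM, with limma 3.58.1 (R 4.3.3, trend option, Benjamini-Hochberg adjustment). Differences between settings were interaction terms over 16 libraries, with 95% intervals. Since the values are FPKM, limma voom on recovered fragments served as an alternative. The fits were first tested on simulated data.

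The members and gene lists were chosen with earlier results of these data known. Named genes are the 12 largest rises and 12 largest falls, the 5 called members of each list with the smallest p, the 10 leading genes of each difference test, and fixed reference genes; others named to complete a count of a few members were chosen after their values were seen. Symbols matched 2072 of 2129 list entries. A planned motif search in promoters was not run here, as no sequence was used.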

Additional observations from a re-analysis of the deposited data

Results flagged for a closer look

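Among 342 groups of 4 values tested, 1 library stood apart from the other 3 in 23, where chance flags about 1 in 20 groups. The values that stood apart were these. Eye LD DMSO replicate 1 had 3.99 FPKM for dre-mir-19b, 7.70 FPKM for fetub, 24.2 FPKM for cry3b, 152 FPKM for rbp3, 32.1 FPKM for angptl4 and 0.0330 FPKM for mpeg1.1. The library eye LD DMSO replicate 2 had 4448 FPKM for opn1mw1 and 15724003 recovered fragments. Eye LD DMSO replicate 4 had 6.56 FPKM for cradd, 0.728 FPKM for lifrb and 22.0 FPKM for cry1b. The library eye LD PFNA replicate 1 had 16.1 FPKM for il11a, 53.6 FPKM for cebpb, 3.16 FPKM for ten1, 64.1 FPKM for sdha, 32.5 FPKM for ddit3 and 37.0 FPKM for fech. Eye LD PFNA replicate 2 had 16.5 FPKM for mki67. The library eye LD PFNA replicate 3 had 0.977 FPKM for serpinh1b and 104 FPKM for opn1sw2. Eye LD PFNA replicate 4 had 2.26 FPKM for dre-mir-19b, 20.9 FPKM for cngb3.2 and 117 FPKM for tfap2a.

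The PFNA response differed between LD eyes and another setting, by the test of the difference itself in limma at an adjusted p under 0.05, for the following named genes. In DD eyes minus LD eyes the difference was nfil3-6 (-2.30), cishb (1.80), cish (1.51), rorcb (-1.23), sesn1 (-1.13), cngb3.2 (-0.80), esrrgb (2.42) and oga (-0.78). In LD brains minus LD eyes the difference was negative, so that the change was more positive in eyes, for il11a (-2.08), atf3 (-1.42), cradd (-2.31), plek2 (-1.75), egr3 (-1.33), il6st (-0.66), socs3b (-1.01), tnfaip3 (-0.91), sesn2 (-0.74), trib3 (-0.75), bag3 (-1.17), msmo1 (-0.69), slc24a2 (-0.93), rdh8a (-0.78), six7 (-1.05), samd7 (-0.95), dio2 (-1.70), pcolcea (-1.09), cyp24a1 (-0.98) and abcc1 (-0.72). It was positive for h2afx (1.01), hsp90aa1.2 (0.98), cngb3.2 (0.71), hes6 (0.72), vgf (1.35), tent5ab (1.26) and paqr4b (1.13). Many of these differences did not outlast the omission of 1 library, which also leaves fewer replicates. The brain difference was lost, with the number of the 16 libraries whose omission ended it in parentheses, for pcolcea (15), sesn2 (15), abcc1 (14), cyp24a1 (14), msmo1 (14), h2afx (13), il6st (12), tnfaip3 (11), rdh8a (10), atf3 (8), bag3 (7), cngb3.2 (5), socs3b (5), hes6 (4), plek2 (4), samd7 (4) and dio2 (1), with adjusted p-values then of 0.05 to 0.11. With a pseudocount of 0.1 FPKM the brain difference was lost for il11a, atf3, plek2, h2afx, il6st, tnfaip3, sesn2, bag3, msmo1 and cngb3.2. It was also lost there for slc24a2, rdh8a, six7, samd7, dio2, pcolcea, paqr4b, cyp24a1 and abcc1 (adjusted p = 0.0506 to 0.703 in all). Voom on recovered fragments ended all of these except atf3, il6st, tnfaip3 and bag3, and also hes6 and tent5ab (adjusted p = 0.0524 to 0.922).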

How the results depend on the processing

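In LD eyes the count of 3199 called genes was 2019 with all 16 eye libraries setting the spread, and between 2192 and 3566 under the other 8 settings; leaving out 1 library gave 2270 to 2967. Of 153 named genes called there, 12 lost the call without at least 1 library and 17 under at least 1 other setting, and none reversed; the calls lost most often were those of fabp3, srgn, dre-mir-19b, jak1 and ahr1b. With the number of single libraries whose omission ended the call, and the adjusted p then, the first 12 were ahr1b (6 libraries, 0.056 to 0.09), ddit3 (2 libraries, 0.0505 to 0.0508), dre-mir-19b (7 libraries, 0.0646 to 0.097), fabp3 (7 libraries, 0.0652 to 0.114), fetub (3 libraries, 0.0506 to 0.0575), jak1 (7 libraries, 0.0567 to 0.117), opn1sw1 (2 libraries, 0.0569 to 0.057), rcvrna (3 libraries, 0.0603 to 0.0788), rho (4 libraries, 0.0523 to 0.0649), rpe65a (5 libraries, 0.0576 to 0.0683), srgn (7 libraries, 0.0521 to 0.0877) and ten1 (2 libraries, 0.0538 to 0.0562). The change of cpt1ab, which was not called, reversed to -0.020 with median-ratio scaling, -0.031 with quantile normalization, -0.031 with array weights and -0.017 with voom, and ranged from -0.16 to 0.16 when 1 library was left out, while that of hsp70l, also not called, ranged from -0.42 to 0.14. The DD minus LD count of 23 was 92 with array weights and 5 to 58 with 1 library left out. The brain minus eye count of 162 was 54 with a pseudocount of 0.1, 79 with no filter and 74 with voom, 35 to 150 with 1 library left out, and the difference of cngb3.2 reversed to -0.45 with voom. The cause was not tested.

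With the replicate number as a block, 2192 genes were called in LD eyes, 23 for the difference from DD eyes and 51 for the difference from brains. Among named genes the block ended the calls of dre-mir-19b, jak1, fabp3, ahr1b, srgn and opn1sw1 in LD eyes (adjusted p = 0.06 to 0.0854), of sesn1 for DD eyes (0.0613), and, for brains, of atf3, plek2, h2afx, il6st, sesn2, bag3, msmo1, cngb3.2, rdh8a, pcolcea and cyp24a1 (0.0501 to 0.0768). Same-numbered PFNA and DMSO libraries did not deviate together (correlations -0.0114 to 0.0285), and no label ties them beyond the number. Same-numbered eye and brain libraries of 1 treatment correlated at 0.0862 to 0.201, and no label says that they came from the same embryos. For LD and DD eyes these correlations were -0.0436 to 0.0385. The block joins both treatments of a number, so a source shared by eye and brain libraries of 1 treatment was not tested. The libraries held 9643359 to 15724003 fragments. With genes split into 4 equal bins by DMSO level, 8.90% rose and 2.17% fell in the lowest, against 16.6% and 11.1% in the highest. The lowest bin held genes at 0 to 3.06 FPKM with DMSO, which have little room to fall on the log2(FPKM + 1) scale. The part of depth in these shares was not tested.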

Other observations

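Several groups of genes that share a symbol gave calls in 1 direction in LD eyes. Most of their called members are outside the gene lists, while acsl1b, acsl4a, acsl4b, klf6a, klf9 and tuba1a were counted there too. They were picked after their values were seen, so no test is given, and each count stands beside the 12% of all genes that rose and the 7.24% that fell. Of 7 tested abcc genes, which encode organic anion exporters, 4 rose, including abcc1 (1.41 ± 0.12) and abcc4 from 3 to 11.4 FPKM (1.6 ± 0.17). Of 10 osbpl genes, which encode oxysterol-binding lipid transfer proteins, 6 rose, including osbpl3a (0.75 ± 0.16). Of 7 acsl genes, which activate fatty acids with coenzyme A, 5 rose, including acsl3b (0.28 ± 0.057; adjusted p = 0.0518 with all 16 eye libraries setting the spread). Of 15 klf genes 7 rose, including klf11a (1.43 ± 0.24). Of 14 genes of the Integrator complex, which processes small nuclear RNAs and nascent transcripts, 6 fell, including ints3 (-0.54 ± 0.089), and of 8 tuba genes of alpha-tubulin 4 fell.

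Single genes outside the lists were also picked after their values were seen, so they stand for no group. The arginase gene arg2, which makes ornithine, went from 17.2 ± 3.70 FPKM with DMSO to 77.1 ± 7.97 FPKM with PFNA (SD, n = 4; change 2.11 ± 0.13, adjusted p = 4.11e-05), and the polyamine acetyltransferase gene sat1a.2 rose by 1.36 ± 0.10. The ferrochelatase gene fech, the last step of haem synthesis, went from 15.6 to 48.7 FPKM (1.57 ± 0.14), the porphyrin transporter gene abcb6a from 7.56 to 20.2 FPKM (1.32 ± 0.16) and the haem-binding gene hebp2 from 5.15 to 20.7 FPKM (1.81 ± 0.12). The insulin pathway genes foxo1a (1.43 ± 0.15) and irs2b (1.3 ± 0.11) and the vitamin D hydroxylase gene cyp24a1 (from 5.24 to 24.1 FPKM, 2.01 ± 0.16) rose. The melatonin enzyme gene aanat2, a clock output in fish photoreceptors, went from 16.5 to 34 FPKM (1 ± 0.11, adjusted p = 0.000517), and the rhythmic deadenylase-family gene nocta rose by 1.3 ± 0.092. The linker histone gene histh1l went from 436 ± 98.8 FPKM with DMSO to 1428 ± 115 FPKM with PFNA (SD, n = 4; change 1.74 ± 0.16) and rose with h1f0 and h1fx while most core histone genes tested fell. All of these passed limma at an adjusted p under 0.05.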
